A study of Rattus norvegicus and Ovis aries with 113 samples.

Results

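The 10 genes described here are germ-cell genes of meiosis and of the piRNA pathway: SYCP1, SYCP2, SYCP3, DDX4, DAZL, PIWIL1, PIWIL2, TDRD1, MAEL and TEX101. They were chosen by name and looked up by upper-cased symbol in the gene count tables of the study. All 10 were present in the rat table, which holds 38675 genes, and in the sheep table, which holds 31304. Rat genes are written as Ddx4 and sheep genes as DDX4.

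The study sequenced polyadenylated RNA of brain and gonadal samples from 2 species, 55 sheep and 58 rat libraries, to look for genes used in both nervous and reproductive tissue. The sheep libraries came from 5 post-pubertal males, numbered 687, 688, 690, 694 and 699, each giving 10 brain regions of the same hemisphere and 1 sperm sample. The rat libraries came from Sprague Dawley rats killed just before dissection: 15 post-pubertal males (animals 3 to 17) gave a whole brain and a sperm library made from seminal fluid, and 14 females (animals 1, 2 and 18 to 29) gave a whole brain and an ovary library; the age of the females is not labelled. No treatment, mutant allele or difference in genotype is labelled in any group, and same-numbered libraries of a species are from the same animal. RNA extraction and library kits differed between the species, so species and kit cannot be told apart.

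In meiosis the synaptonemal complex zips homologous chromosomes together. SYCP1 forms its transverse filaments, while SYCP2 and SYCP3 build the lateral elements along each chromosome axis. DDX4 (also called VASA) is an RNA helicase of germ granules, and DAZL is an RNA-binding protein that controls translation in germ cells. PIWIL1 and PIWIL2 are PIWI proteins that bind piRNAs, small RNAs that silence transposons in the germ line, and TDRD1 and MAEL work beside them in the same granules. TEX101 is a glycoprotein anchored to the surface of male germ cells that is needed for sperm to pass the oviduct. In the testis most of these genes are known to be transcribed in spermatogonia, spermatocytes or early spermatids, and mature sperm carry little transcription of their own. In the ovary they are known from oocytes.

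The letters of the rat promoters are shown for the members whose levels moved together across the sperm libraries (below) and that hold the E-box CACGTG, and for Tex101, which had a level of its own. Each is the 250 bases before the start site that RefSeq's GRCr8 promoter table uses, read 5′ to 3′ on the gene's strand, with motif matches in capitals. RefSeq's promoter table had 9 of the 10 members, and Piwil2 was not matched.
Ddx4: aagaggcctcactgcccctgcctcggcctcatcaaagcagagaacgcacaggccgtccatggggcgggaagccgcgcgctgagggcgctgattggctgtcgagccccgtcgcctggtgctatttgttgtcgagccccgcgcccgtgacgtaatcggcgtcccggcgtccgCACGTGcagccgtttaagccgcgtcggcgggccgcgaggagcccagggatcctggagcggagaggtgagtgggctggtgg
Mael: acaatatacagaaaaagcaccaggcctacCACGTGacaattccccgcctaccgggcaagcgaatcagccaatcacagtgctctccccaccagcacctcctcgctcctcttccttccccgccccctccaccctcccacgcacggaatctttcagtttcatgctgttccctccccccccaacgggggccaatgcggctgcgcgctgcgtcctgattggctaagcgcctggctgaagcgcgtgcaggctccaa
Piwil1: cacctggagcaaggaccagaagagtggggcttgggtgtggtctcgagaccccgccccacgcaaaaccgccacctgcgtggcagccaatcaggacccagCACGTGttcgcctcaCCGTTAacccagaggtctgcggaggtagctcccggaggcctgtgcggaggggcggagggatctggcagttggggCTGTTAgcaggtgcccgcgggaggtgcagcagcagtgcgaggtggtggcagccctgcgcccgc
Tdrd1: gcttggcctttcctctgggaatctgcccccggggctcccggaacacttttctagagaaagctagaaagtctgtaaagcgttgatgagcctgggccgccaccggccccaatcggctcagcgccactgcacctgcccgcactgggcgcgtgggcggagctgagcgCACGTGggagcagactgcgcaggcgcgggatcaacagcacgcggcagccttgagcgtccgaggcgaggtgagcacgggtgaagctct
Sycp3: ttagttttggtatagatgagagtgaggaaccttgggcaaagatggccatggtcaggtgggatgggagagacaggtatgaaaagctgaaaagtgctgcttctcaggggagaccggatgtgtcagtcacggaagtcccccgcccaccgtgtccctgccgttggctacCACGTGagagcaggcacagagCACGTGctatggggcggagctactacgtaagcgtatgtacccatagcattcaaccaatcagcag
Tex101: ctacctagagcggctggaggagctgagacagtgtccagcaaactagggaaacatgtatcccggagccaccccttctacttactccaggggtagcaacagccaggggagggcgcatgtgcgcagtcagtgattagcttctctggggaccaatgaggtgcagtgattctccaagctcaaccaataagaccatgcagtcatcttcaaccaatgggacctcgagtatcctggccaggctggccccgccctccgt
These windows lie at chr2:46015952-46016201 (minus strand, Ddx4), chr13:81029624-81029873 (minus, Mael), chr12:33606584-33606833 (minus, Piwil1), chr1:265880775-265881024 (plus, Tdrd1), chr7:24761226-24761475 (plus, Sycp3) and chr1:89387341-89387590 (minus, Tex101). The table's start site is not always the outer end of the annotated gene: the windows of Ddx4 and Piwil1 overlap their genes' spans by 146 and 132 bases, and that of Tdrd1 lies inside its gene over all 250 bases.

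Of the 9 matched promoters, 5 held CACGTG, the core that E-box factors bind, on either strand: Ddx4, Mael, Piwil1, Sycp3 (in 2 places) and Tdrd1. Among 33469 rat promoters of the same length, 5.59% held it. The motif TAACNG, the core bound by MYB proteins such as A-MYB, a regulator of piRNA genes in spermatocytes, was in Piwil1 (2 places) and Sycp1, and in 20.3% of all promoters. CNCCTCAG, linked to the meiotic entry factors STRA8 and MEIOSIN, was in Sycp1 only of the 9, and in 7.11% of all promoters. TGACGTCA, the full cAMP response element, was in none of the 9 and in 1.59% of all. The 9 windows held 7 to 30 CpG dinucleotides, Tex101 the fewest and Ddx4 the most, beside a median of 5 over all promoters. CACGTG itself contains a CpG, and the set of all promoters was not matched to the 9 in CpG content. The shares with CACGTG are therefore not like for like and are no test. These matches describe letters in the windows, and nothing in the data tests binding.

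Sequencing depth, in units of 1000000 counts, was 38.2 to 119 in rat brain, 50.5 to 60.3 in ovary, 13.7 to 65.1 in rat sperm, 46.7 to 72.4 in sheep brain and 13.7 to 65.1 in sheep sperm. A few rRNA-like entries took 22.4% to 85.2% of the counts in the sheep sperm libraries, whose TMM scaling factors were 0.114 to 0.305. The brain libraries of rat female 1 and rat male 4 stood apart, with 86.9% and 83.1% of counts in such entries and 8679 and 10758 genes at 1 CPM (count per 1000000 counts of the library) or more, against 14177 to 17141 genes in the other 27 rat brains. Rat sperm libraries 16, 17 and 7 held 273, 243 and 325 genes with just 1 or 2 counts, against 1878 to 3500 in the other 12, so a listed 0 there is not comparable to a 0 elsewhere. In GRCr8 further loci overlap Sycp2 (a pseudogene), Piwil1, Piwil2 and Mael (unnamed loci), and reads there may be shared. Levels below are CPM of the plain library total. No transcript lengths were used, so levels are compared between samples and not between genes. The labelled tissues were checked against marker lists: 7 neuron genes summed to 723 to 6791 CPM in male rat brain and 0.958 to 22.8 CPM in rat sperm, and 14 late spermatid and sperm genes, such as the protamines, summed to 328 to 34485 CPM in rat sperm and 7.34 to 80.9 CPM in male rat brain.

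Across the 15 rat sperm libraries, 8 of the 10 genes had their 4 highest values in the same 4 libraries, those of animals 14, 7, 3 and 13. By comparison, of the 22691 rat genes with at least 1 CPM in a sperm library, 22.9% had these same 4 libraries on top. The 4 libraries were picked from the members' own values, so setting these shares side by side is no test. Of the 10 genes, 6 had no counts in at least 2 of the other 11 libraries. That count includes libraries 16 and 17, where 6 and 7 members had no counts and a 0 is not comparable to a 0 elsewhere. Both zeros of Sycp2 were in these 2 libraries. Piwil2 had 3 of the 4 on top, and Tex101 followed another order. The highest value was in library 14 for 7 genes and in library 7 for Sycp3, Dazl and Tex101. In bulk libraries such as these, fewer cells of a type and less RNA per cell cannot be told apart.

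Sycp1, which spans chr2:192985164-193145234 on GRCr8, the transverse filament gene, had 17.7 CPM in library 14, 10.2 in 7, 3.30 in 3 and 1.31 in 13. The other 11 libraries ran from 0 to 0.343 CPM, and 6 of them had no counts. Each step down that order was clear of the next, and the median over all 15 was 0.104 CPM.

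Sycp2 (chr3:185814033-185876516), a lateral element gene, had 66.8 CPM in library 14, 47.8 in 7, 13.4 in 3 and 6.37 in 13, against 0 to 1.84 in the other 11. Unlike Sycp1 it was seldom at 0: 2 libraries, 16 and 17, had no counts. Its median was 1.01 CPM.

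Sycp3 (chr7:24761476-24775933), the other lateral element gene, had 101 CPM in library 14, 104 in 7, 21.1 in 3 and 8.83 in 13, against 0 to 1.85 in the other 11. Sycp3 overlaps Chpt1, a phospholipid synthesis gene, and reads of the overlap may be split between them. Chpt1 itself was at 117 CPM in library 14, 68.5 in 7, 46.5 in 3 and 30.9 in 13, and at 4.36 to 24.4 in the others, so both genes were highest in the same 4 libraries.

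Ddx4 (chr2:45961174-46016097), the germ granule helicase, reached 216 CPM in library 14, 145 in 7, 67.1 in 3 and 21.7 in 13. Library 16 followed at 15.8 CPM, and the remaining 10 were between 0 and 4.28. The fall from library 14 to library 13 was 9.95-fold for Ddx4, within the 9.88-fold to 15.9-fold span of the 9 genes other than Tex101.

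Dazl (chr9:18193363-18210100), the translational regulator, had 24.9 CPM in library 7, 22.2 in 14, 3.11 in 3 and 1.44 in 13. The other 11 libraries ran from 0 to 0.243 CPM, 7 of them with no counts, and the median was 0.0186 CPM. Beyond those 4 libraries, Dazl was barely measured in rat sperm.

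Piwil1 (chr12:33585747-33606715), the PIWI protein of pachytene piRNAs, had 246 CPM in library 14, 99.9 in 7, 22.4 in 3 and 15.5 in 13, and 0 to 2.03 in the other 11, 6 of them with no counts. Piwil2 (chr15:51841104-51907729), a PIWI protein of earlier germ cells, had 54.8 CPM in library 14, 18.2 in 7 and 6.38 in 3. For Piwil2, library 17 followed at 4.08 CPM and library 13 at 3.73, and its median of 1.93 CPM shows that most libraries held some. Piwil2 was at 0 counts in library 16 alone.

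Tdrd1 (chr1:265876858-265924357), a scaffold of the piRNA granule, had 124 CPM in library 14, 68.7 in 7, 18.5 in 3 and 11.6 in 13, against 0 to 1.46 in the other 11. Tdrd1 overlaps Ccdc186, whose mean was 55.8 ± 10.5 CPM (SD, n = 15) in the sperm libraries. Mael (chr13:80990040-81029623), a factor for transposon silencing, had 707 CPM in library 14, 257 in 7, 139 in 3 and 71.5 in 13. Library 16 (15.2 CPM), library 9 (7.70) and library 15 (5.75) came next for Mael, and libraries 11 and 12 had no counts.

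Tex101 (chr1:89382974-89387340), the surface glycoprotein, was present in all 15 sperm libraries, from 4.78 to 124 CPM with a median of 31.1. Its 2 highest libraries, 7 (124 CPM) and 14 (124 CPM), were followed by 15 (99.7) and 17 (85.8), and then by library 13 at 44.7. The highest value was 3.99 times the median for Tex101 and 28.4 to 1339 times the median for the other 9 genes.

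**Figure D1:**
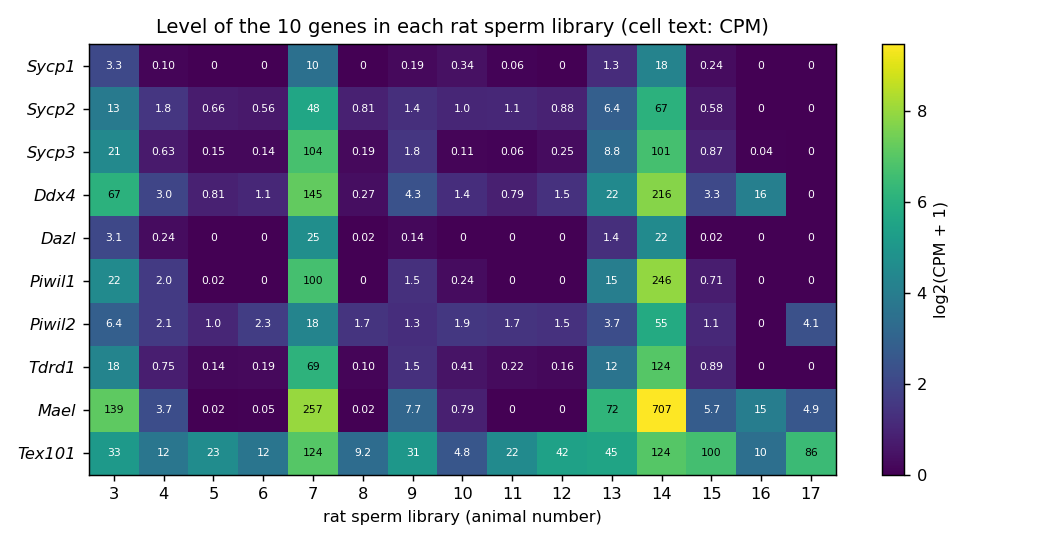
Level of each gene (rows) in each of the 15 rat sperm libraries (columns, by animal number); the number in a cell is CPM and its colour is log2(CPM + 1). The columns of animals 14, 7, 3 and 13 are the brightest in 8 of the 10 rows, while Tex101 has a level in every column.

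The rank order was shared to a different degree by each pair of genes. Over the 15 libraries, Spearman's rho lay between 0.35 and 0.943 (median 0.781) for the 36 pairs without Tex101. The closest pair was Sycp1 with Tdrd1 at 0.943. Tex101 had the lowest median over its 9 pairs, 0.523 (0.391 to 0.604), and Piwil2 the next lowest, 0.551. The values of a pair share library, depth and scaling, and no p is given.

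Other measures moved with that order. Libraries 14, 7, 3 and 13 had the most genes at 1 CPM or more, 19576, 19531, 17664 and 15341, against 12564 to 14562 in the other 11. In the same order of libraries, 12 spermatocyte markers (7 of which are also in the pathway lists below) summed to 1697, 1369, 679 and 210 CPM, against 21.1 to 150 in the other 11. Of these 12 genes, 7 had their 4 highest values in these libraries. Round spermatid markers summed to 1635, 816, 287 and 78.8 CPM against 0.467 to 15.6, with 6 of 8 genes highest in these 4 libraries. Late spermatid and sperm markers summed to 34485, 31878, 12890 and 3377 CPM against 328 to 6746, with 9 of 14 genes highest there. Spermatogonial markers reached 31.5, 24.3, 5.40 and 2.00 CPM against 0 to 10.9, with 3 of the 6 genes that reached 1 CPM highest there. Nanos2, Sohlh1, Sohlh2, Dmrt1 and Stra8 of the spermatogonial list are also in the pathway lists. The spermatocyte and round spermatid sums were thus highest in the same 4 libraries as the members. Late spermatid sums in library 13, and spermatogonial sums in libraries 3 and 13, lay inside the range of the other 11.

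Markers of other cells moved in part. Sertoli cell genes summed to 56.0, 60.2, 12.4 and 12.0 CPM in libraries 14, 7, 3 and 13 and to 1.77 to 19.1 in the others, with 1 of the 5 genes that reached 1 CPM highest in those 4. Leydig cell genes summed to 9.90, 18.8, 5.49 and 4.09 CPM against 1.57 to 6.42, with 2 of 5 such genes highest in those 4. Glial genes summed to 574, 513, 154 and 44.5 CPM against 13.4 to 60.7, with 0 of the 6 genes that reached 1 CPM highest in those 4. Epididymal and vas deferens genes followed no such order, with 4814, 224, 783 and 33019 CPM in those libraries and 2123 to 52069 in the others. No gene of these lists was at 0 in all 15 libraries. The part of these cells and of library complexity in the members' levels was not tested.

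Among pathway genes that are not members, more of the piRNA list than of the recombination list had their 4 highest values in the same 4 libraries: 13 of 18 piRNA genes, 10 of 24 recombination genes, 5 of 8 synaptonemal complex and cohesin genes and 9 of 14 other germ-cell regulators, counting genes with at least 1 CPM in a library. Gtsf1, a piRNA pathway zinc finger gene, had 513 CPM in library 14, 196 in 7, 83.5 in 3 and 29.9 in 13. Stag3, the meiotic cohesin, had 93.5, 62.8, 27.8 and 12.2 CPM in the same libraries. Pathway genes off this order included Msh5, a crossover gene (34.5 CPM in library 16 and 10.8 in 14), and Ythdc2, a meiotic RNA regulator (37.8 CPM in library 17 and 7.26 in 14). These 4 were chosen after their values were seen.

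The genes most like each member over the 15 sperm libraries were taken from all named genes with a mean of at least 1 CPM, by Spearman's rho. Ddx4 was closest to Lmntd1 (0.996), Efcab5 (0.989) and Ankar (0.986), and Piwil1 to A630010A05Rikl (0.996), Glt6d1 (0.996) and Cfap221 (0.992). Mael ranked with Phyhipl (0.987), Cdca2 and Cfap58 (both 0.983), and Tdrd1 with Lrrc73 (0.989), 1700109H08Rikl and C5h8orf89 (both 0.986). The nearest to Sycp1 were Lrrc69 (0.986), Gml (0.985) and Saxo5 (0.981). For Sycp2 they were Chit1 (0.982), Slc17a2 (0.957) and Slc25a41 (0.954), and for Sycp3 Cntnap2 (0.985), Cfap96 and Mageb10 (both 0.971). Dazl was nearest to Becn2 and Eya1 (both 0.992) and Irx5 (0.976), Piwil2 to Sdccag8 (0.961), Kif24 (0.957) and Rpgrip1l (0.954), and Tex101 to B3glct (0.971), Uaca (0.961) and Dtd1 (0.957). Several of these values were tied with those of further genes.

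Rat sperm was then set against the brains of the same 15 males. Libraries with the germ-cell transcripts lay far above brain, and for several genes the rest lay within or below the brain range. Tex101 was above all 15 brains, which ran from 0 to 0.0549 CPM, in all 15 sperm libraries, and Ddx4 was above all brains (0 to 0.163 CPM) in 14 of 15. How many of all genes were separated from brain in this way was not counted. Sycp1 had 0 counts in every male brain, and 9 sperm libraries had some. Its sperm mean of 2.23 ± 5.03 CPM (SD, n = 15) was at least 588-fold higher than the brain floor of 3 counts over the group. Mael was above the highest brain (0.969 CPM) in 9 sperm libraries and below the lowest in 3, Piwil1 above it (0.140 CPM) in 8, and Dazl above it (0.140 CPM) in 6 and below the lowest in 7.

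The remaining 4 genes were measured in brain at levels that many sperm libraries did not reach. Sycp3 had a median of 5.16 CPM in male brain (0.432 to 7.89), and 4 sperm libraries were above that range while 8 were below it. Piwil2 had a brain median of 2.79 CPM (0.275 to 3.72), with 5 sperm libraries above it and 9 inside it. Sycp2 had a brain median of 1.26 CPM (0.0785 to 2.01), with 4 above and 9 inside. Tdrd1 had a brain median of 0.586 CPM (0.0196 to 0.998), with 5 above and 8 inside. The lowest brain values of these 4 genes were all in the brain of male 4, where rRNA-like entries took 83.1% of the counts. The numbers of sperm libraries inside and below these ranges therefore rest on that 1 brain.

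A gene was called changed by edgeR's quasi-likelihood test at a Benjamini-Hochberg adjusted p below 0.05 over all genes tested, with a log2 fold change of 1 or more in size. Of 20480 genes tested between rat sperm and male brain, 27.7% were called higher in sperm. The filter on low counts passed 7 members, and all 7 were called higher. Ddx4 and Tex101 passed that filter through the sperm libraries, where they are high, and had to differ. Sycp1, Dazl and Piwil1 were above the filter in too few libraries and were not tested.

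The log2 fold change was 12.31 for Tex101 (SE 0.70, adjusted p = 2.2e-16), 9.92 for Ddx4 (SE 1.22, adjusted p = 1.2e-08) and 7.88 for Mael (SE 1.32, adjusted p = 3.1e-06). It was 5.04 for Tdrd1 (SE 1.05), 3.37 for Sycp2 (SE 0.80), 2.06 for Sycp3 (SE 0.92, adjusted p = 0.043) and 1.63 for Piwil2 (SE 0.58, adjusted p = 0.012). With no filter, Sycp1 (9.84), Piwil1 (8.62) and Dazl (5.88) were called higher as well, and Sycp3 was not (1.98, adjusted p = 0.051).

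Sperm and brain of 1 number come from the same rat, and a fit with the animal as a block changed 5 of the 7 calls. In that fit Sycp2 (0.83, adjusted p = 0.35), Piwil2 (0.13, adjusted p = 0.84), Tdrd1 (0.69, adjusted p = 0.59) and Mael (3.40, adjusted p = 0.061) were no longer called, and Sycp3 was called lower in sperm (-2.53, adjusted p = 0.044). Ddx4 (8.07) and Tex101 (12.33) kept their calls. Without sperm library 14, Piwil2 fell out (0.51, adjusted p = 0.26) and so did Sycp3 (1.24, adjusted p = 0.18), while Ddx4 (9.03), Mael (6.56), Tdrd1 (3.85) and Sycp2 (2.45) stayed called. The call of Sycp3 was also lost without sperm library 7 (1.45, adjusted p = 0.13), without sperm library 3 (1.96, adjusted p = 0.062) and without the brain of male 4 (2.03, adjusted p = 0.055).

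**Figure D2:**
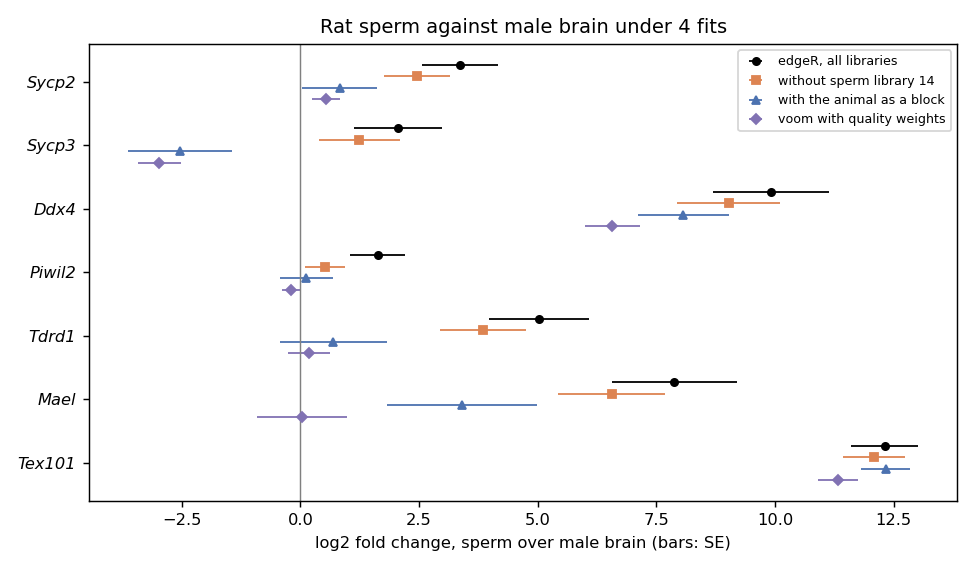
Log2 fold change of the 7 tested genes, rat sperm over male brain (horizontal axis, bars are 1 SE), under edgeR with all libraries, without sperm library 14, with the animal as a block, and under limma voom with sample quality weights. Tex101 and Ddx4 lie right of 0 in all 4 fits, and Sycp3 lies on either side of 0.

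Of the other pathway genes in the lists, 46 of 71 were tested in rat sperm against male brain, of which 24 were called higher and 5 lower. Their median log2 fold change was 1.29, beside -0.03 over all genes tested, but that balance depended on the fit. With the animal as a block 10 were called higher and 8 lower, with a median of -0.20, with voom weights 10 and 11 (median -0.31), and with plain library totals 22 and 9 (median 1.07). Among synaptonemal complex and cohesin genes 5 of 7 tested were called higher, led by Stag3 (6.31) and Syce1, a central element gene (5.56), and Rad21l1, a meiotic cohesin, was lower (-2.50). Of 18 recombination genes 8 were called higher, with Spo11, which cuts DNA to start recombination (6.59), and Hormad2 (5.66) in front, and 3 were lower, among them Mei4 (-6.29) and Mei1 (-3.29), both needed for those cuts. Of 13 piRNA genes 7 were called higher, led by Mov10l1, a helicase of piRNA precursors (4.59), and Fkbp6 (4.54), and Spocd1, a factor of piRNA-directed DNA methylation, was lower (-5.84). Of 8 other regulators 4 were called higher, with Topaz1 (4.48) and Meioc (4.33) in front. Spo11 and Hormad2 passed the filter through the sperm libraries, and Mei4 and Spocd1 through the brain libraries, and had to differ. Of the genes named here, 4 were not called with the animal as a block: Stag3 (1.60, adjusted p = 0.27), Mov10l1 (0.98, adjusted p = 0.42), Fkbp6 (0.03, adjusted p = 0.99) and Meioc (-0.19, adjusted p = 0.86). The same 4 were not called with voom weights.

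In the rat ovary every member had a lower maximum and a narrower range than in sperm. Ddx4 ran from 0.572 to 2.79 CPM with a median of 1.21, above all 14 female brains (0 to 0.0203 CPM). Dazl ran from 1.54 to 8.58 CPM with a median of 2.93, again above every female brain (0 to 0.304). Piwil1 ran from 0.396 to 2.89 CPM (median 0.705) and Tdrd1 from 1.37 to 5.16 (median 1.86), both above every female brain, and Mael from 0.396 to 2.43 (median 1.11) was above the highest in 13 of 14 ovaries. The share of all genes with ovaries above every female brain was not counted.

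Sycp1 was low in ovary, 0 to 0.482 CPM with a median of 0.163, and above the highest female brain (0.0373 CPM) in 11 of 14. Tex101 was at 0.0172 to 0.242 CPM in ovary, with 8 of 14 above the highest female brain (0.0610). Both lateral element genes had lower medians in ovary: Sycp3 had a median of 0.624 CPM (0.244 to 1.09) in ovary against 3.67 (0.176 to 5.66) in female brain, and Sycp2 0.821 (0.553 to 1.13) against 0.989 (0.0671 to 1.39). Piwil2 had medians of 2.57 CPM in ovary (1.79 to 9.31) and 2.38 in female brain (0.193 to 3.43).

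**Figure D3:**
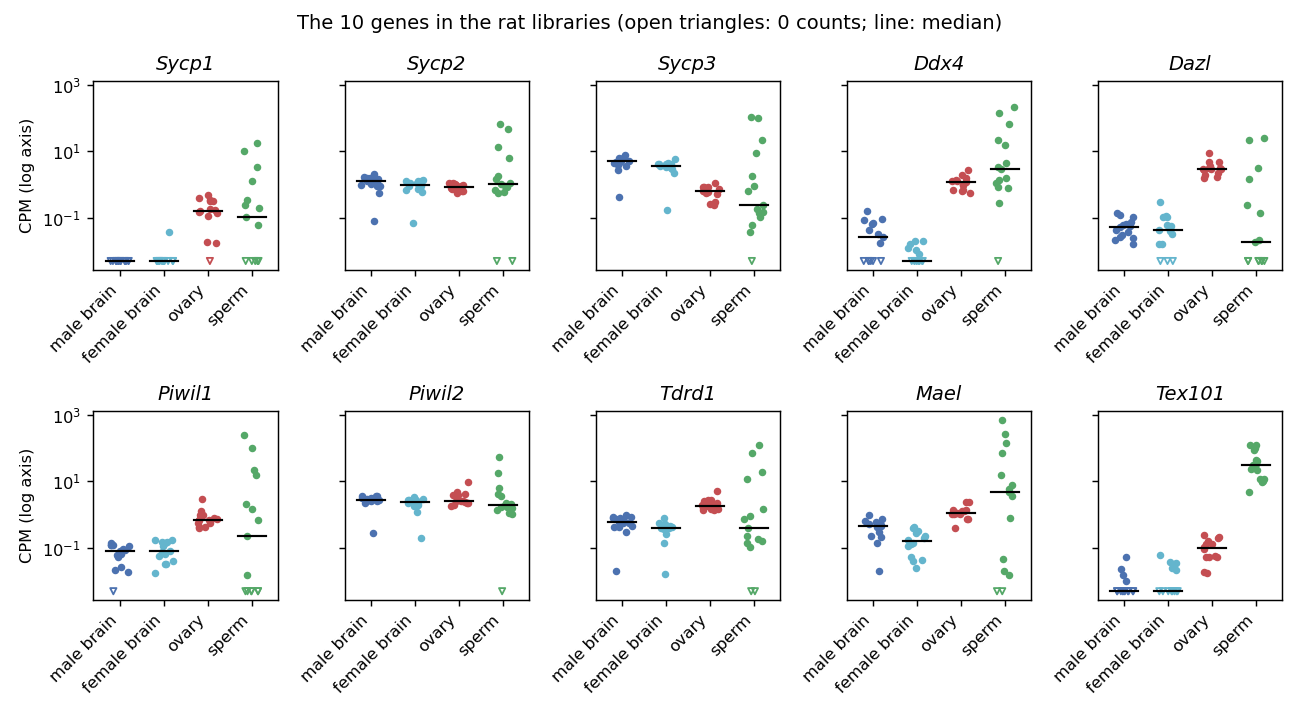
CPM (log axis) of each gene in the 15 male brains, 14 female brains, 14 ovaries and 15 sperm libraries; points are libraries, lines are medians, and open triangles are libraries with 0 counts, drawn at the foot of the axis. Sperm points spread over the widest range in all panels but that of Tex101, whose 15 sperm points are above all others.

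Between ovary and female brain, 27.7% of 20801 genes tested were called higher in ovary and 29.2% lower. Of 8 members tested, 5 were higher: Ddx4 by 6.70 on the log2 scale (SE 0.39), Dazl by 5.42 (SE 0.38), Piwil1 by 2.82 (SE 0.33), Mael by 2.47 (SE 0.29) and Tdrd1 by 2.19 (SE 0.20), with adjusted p-values from 2.3e-16 (Ddx4) to 3.5e-09 (Piwil1). Ddx4, Dazl, Piwil1 and Mael passed the filter through the ovary libraries, where they are high, and had to differ. Sycp3 was lower (-2.78, SE 0.18, adjusted p = 2.9e-15). Sycp2 (-0.45, SE 0.12) was under the fold threshold at an adjusted p of 0.00081, and Piwil2 (0.28, SE 0.19) had an adjusted p of 0.16. Sycp1 and Tex101 were not tested, and with no filter they were called higher (4.88 and 2.49). The animal block changed none of these calls.

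Ovary 18 was the highest of the 14 for 6 members: Sycp1 (0.482 CPM), Ddx4 (2.79), Dazl (8.58), Piwil1 (2.89), Tdrd1 (5.16) and Mael (2.43). The 11 oocyte markers measured, such as the zona pellucida genes, summed to 231 CPM in ovary 18 and to 48.9 to 127 in the other 13. Piwil2 and Sycp2 were highest in ovary 22 instead, at 9.31 and 1.13 CPM, where oocyte markers summed to 68.7 CPM. Granulosa cell markers summed to 1258 to 5117 CPM over the 14 ovaries. Without ovary 18 the ovary mean of Dazl was 2.92 ± 1.00 CPM (SD, n = 13), against 3.32 ± 1.79 (SD, n = 14) with it. The part of oocyte number in these levels was not tested.

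Of the other pathway genes, 48 were tested between ovary and female brain, with 16 called higher and 14 lower and a median log2 fold change of 0.15, beside 0.02 over all genes. Higher in ovary were Hormad2 (4.94), Piwil4, the nuclear PIWI gene (3.34), Msh5 (3.19) and Tex15 (2.83), and lower were Spocd1 (-4.89), Hfm1, a crossover helicase (-3.22), Mei1 (-2.90) and Tdrkh, a piRNA trimming partner (-2.53). Hormad2 passed the filter through the ovary libraries and Spocd1 through the brain libraries, and both had to differ.

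Ovary and sperm were compared between animals of different sex, with no shared numbers. Of 19611 genes tested, 22.9% were called lower in ovary. All 10 members were tested and 9 were called lower in ovary, with log2 differences of -8.99 for Tex101 (SE 0.61), -6.42 for Mael (SE 1.30), -5.30 for Piwil1 (SE 1.33), -5.10 for Ddx4 (SE 0.96) and -5.09 for Sycp3 (SE 1.14). They were -3.89 for Sycp2, -3.87 for Sycp1, -3.19 for Tdrd1 and -1.40 for Piwil2 (adjusted p = 0.047). Tex101 passed the filter through the sperm libraries, where it is high, and had to differ. For Tex101 every ovary lay below every sperm library, and the share of all genes so separated was not counted.

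For the other 9 genes all 14 ovaries lay inside the range of the sperm libraries, so these differences in fitted means sat beside medians that often went the other way. Dazl had a median of 2.93 CPM in ovary and 0.0186 in sperm, while its means were 3.32 ± 1.79 (SD, n = 14) and 3.47 ± 8.21 CPM (SD, n = 15). Its log2 difference of -0.45 (SE 1.03) had an adjusted p of 0.71. Of the 9 genes called lower in ovary, 5 also had higher medians there than in sperm: Piwil1 (0.705 against 0.236 CPM), Tdrd1 (1.86 against 0.407), Sycp3 (0.624 against 0.247), Sycp1 (0.163 against 0.104) and Piwil2 (2.57 against 1.93). Limma voom with sample quality weights, which gives variable libraries less weight, called Dazl (5.95), Piwil1 (2.26) and Tdrd1 (1.64) higher in ovary and Tex101 (-8.31) and Ddx4 (-1.23) lower. Without sperm library 14 or library 3 the call of Piwil2 was lost (-0.34, adjusted p = 0.53, and -1.43, adjusted p = 0.0503).

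Of 52 other pathway genes tested, 4 were higher and 23 lower in ovary than in sperm (median -1.30, beside 0.12 over all genes). With voom weights that balance turned, to 21 higher and 11 lower with a median of 0.36, the same as over all genes (0.36). Lower were Syce1 (-8.40), Topaz1 (-7.00), Gtsf1 (-6.69), Tcfl5 (-6.53), Smc1b, a meiotic cohesin (-6.42), Spo11 (-5.39) and Mov10l1 (-4.41), of which Smc1b (-0.88), Gtsf1 (0.46) and Mov10l1 (0.11) were not called with voom weights. Higher in ovary were Mei4 (6.56), Tex15 (4.31) and Trip13 (1.19). Syce1, Topaz1 and Spo11 passed the filter through the sperm libraries and Mei4 through the ovary libraries, and these had to differ.

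Female and male brain were compared as a baseline for the low brain levels. Of 20570 genes tested, 0.0583% (12 genes) were called in either direction, and of 5 members tested none was called by edgeR. At an unadjusted p below 0.05 were 2 of them, Mael (-1.02, SE 0.27, p = 0.00082, adjusted p = 0.15) and Tdrd1 (-0.36, SE 0.17, p = 0.039). DESeq2 and voom each called Mael lower in female brain (-1.02, adjusted p = 0.047, and -1.17, adjusted p = 0.030). Mael had a median of 0.157 CPM in 14 female brains (0.0252 to 0.437) and 0.456 in 15 male brains (0.0196 to 0.969), and the ranges overlapped.

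In sheep sperm every member stayed at or below 5.91 CPM of a plain total that rRNA-like entries fill in large part. Sheep 688 had the lowest value of 4 members, SYCP1, SYCP2, PIWIL1 and MAEL, and sheep 694 the highest of 5. SYCP1 was at 2.99 CPM in sheep 687, 0.102 in 688, 1.10 in 690, 1.79 in 694 and 5.04 in 699, against 0 to 0.265 in the 50 brain libraries. MAEL was at 1.50, 0.122, 1.17, 2.61 and 5.25 CPM in the same order, against 0 to 0.434 in brain. PIWIL1 was at 1.29, 0.753, 5.91, 3.15 and 1.77 CPM, above all 50 brains (0 to 0.121). How many of all genes had sperm values above or below all 50 brains was not counted.

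SYCP1 and MAEL were above every brain library in 4 of the 5 sheep, all but 688. TDRD1 was at 0, 0.102, 1.10, 1.52 and 1.03 CPM in sheep 687, 688, 690, 694 and 699, above the highest brain (0.128) in 3. DAZL was at 0.123, 0.163, 0.730, 1.62 and 0 CPM, above the highest brain (0.236) in 2. TEX101, which every rat sperm library held, was at 0.123, 0.407, 0, 0 and 0.211 CPM. PIWIL2 was at 0, 0.0814, 0, 0.575 and 0 CPM. Both were scarce in brain too, with counts in 1 and 14 of the 50 libraries.

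On this plain-total scale DDX4 and SYCP3 had higher medians in sheep brain than in sperm, a direction that turned with the scaling (below), and SYCP2 lay mostly within the brain range. DDX4 was at 0.553, 0.915, 0.292, 0.948 and 0.485 CPM in sperm of sheep 687, 688, 690, 694 and 699, below all 50 brain libraries (1.02 to 12.2, median 2.35). SYCP3 was at 0.154, 0.0407, 0, 0.677 and 0.169 CPM in sperm, below all brain libraries (0.458 to 1.85) in 4 sheep. SYCP2 was at 3.18, 0.427, 1.46, 2.51 and 3.04 CPM in sperm, inside the brain range (0.569 to 6.18) in 4, with a median of 2.51 against 1.55 in brain.

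**Figure D4:**
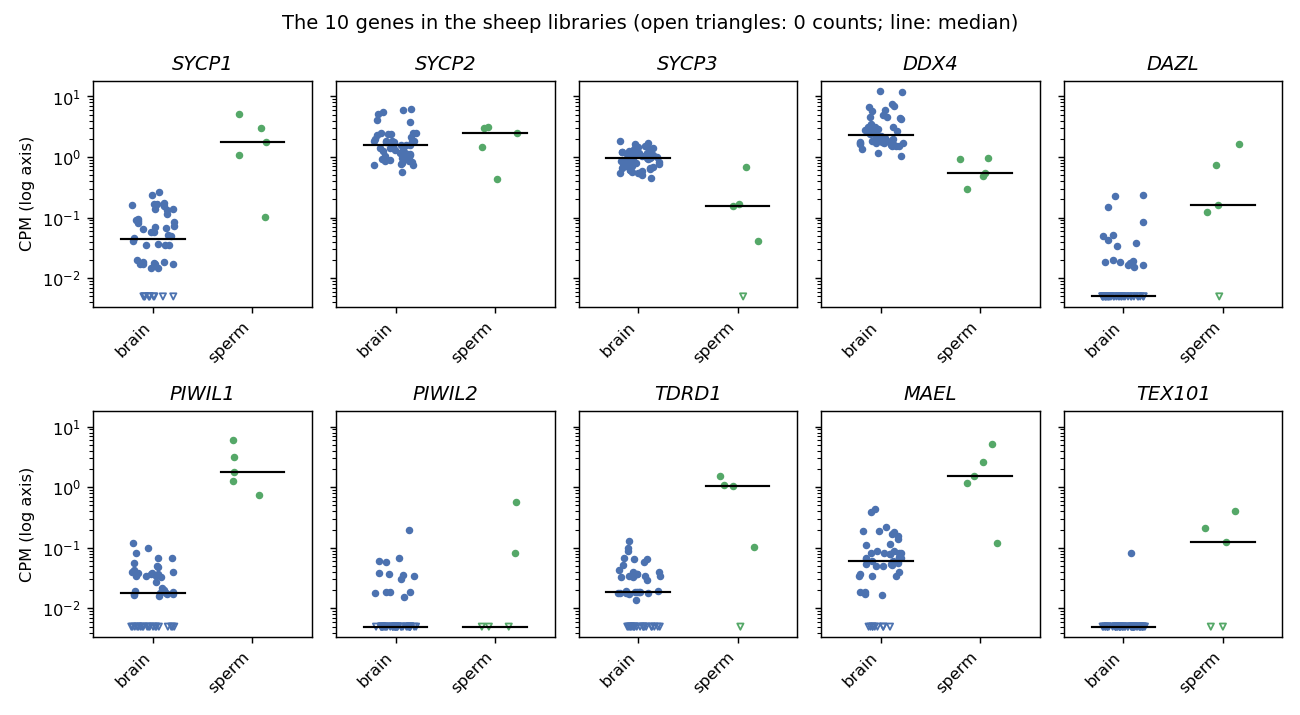
CPM (log axis) of each gene in the 50 sheep brain libraries (10 regions of 5 animals) and the 5 sheep sperm libraries; points are libraries, lines are medians, and open triangles are libraries with 0 counts, drawn at the foot of the axis. PIWIL1 has all 5 sperm points above all brain points, and DDX4 has all 5 below on this scale, a direction that turned with other scalings.

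Fold changes in sheep depended on the scaling, and the cause was not tested. Of 21859 genes tested, 33.1% were called higher in sperm (7239 higher and 8976 lower, with a median over all genes of -0.42). With the rRNA-like entries left out the split was 7376 higher and 9018 lower (median -0.40). With upper quartile factors the split was 8907 higher and 6980 lower (median 0.31), with DESeq2 9913 and 8118 (median 1.05), and with plain library totals 3249 and 15084 (median -2.84). Of 6 members tested, 4 were called higher: PIWIL1 (9.25, SE 0.34), SYCP1 (8.27, SE 0.36), MAEL (7.37, SE 0.42) and SYCP2 (3.11, SE 0.22), with adjusted p-values up to 3.1e-18. The fit shared its spread over all 55 libraries, most of them brain, and counted the regions of a sheep as separate. These SEs and p-values therefore do not measure the spread between the 5 animals. SYCP1 and PIWIL1 passed the filter through the sperm libraries and had to differ. The calls of PIWIL1, SYCP1 and MAEL held under every scaling, with plain totals giving 6.79, 5.51 and 4.76, but SYCP2 was not called with plain totals (0.37, adjusted p = 0.18).

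DDX4 (0.38, SE 0.29, adjusted p = 0.22) and SYCP3 (0.27, SE 0.33, adjusted p = 0.46) were not called. Their direction turned with the scaling: both were called lower with plain totals (-2.14 and -2.15) and higher with upper quartile factors (1.14 and 1.06). DAZL, PIWIL2, TDRD1 and TEX101 were not tested. With no filter all 4 were called higher (7.44, 5.44, 7.07 and 8.19), and with DESeq2 all but TEX101. DAZL also passed the filter and was called without sheep 687 (7.63). The regions of a sheep share an animal, and the fit with the animal as a block changed none of these calls. That block still counts the 10 regions of a sheep as replicates of brain.

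The sheep sperm libraries held RNA of other cells. Squamous epithelium markers, such as KRT4 and KRT13, summed to 1047 to 43862 CPM there against 0.588 to 5.26 in brain, and neutrophil markers to 1582 to 39936 CPM against 0.401 to 7.87. In the same libraries 14 late spermatid and sperm markers summed to 66.7 to 1665 CPM, against 24.1 to 91.5 in brain. Of these germ-cell markers none was at 0 in all 5 sperm libraries, while NANOS2, SOHLH1 and LIN28A of the spermatogonial list were. The part of these cells in the members' levels was not tested.

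Of 55 other pathway genes tested in sheep, 27 were called higher in sperm and 19 lower, with a median of 0.61. This balance moved with the scaling and tool: with plain library totals 10 were called higher and 32 lower (median -1.65), with upper quartile factors 29 and 11 (median 1.29), with voom weights 17 and 6 (median 0.35), and with DESeq2, which tested 70, 39 and 15 (median 2.19). RNF212, a crossover factor, was higher by 15.13 on the log2 scale, at 52.6 ± 49.7 CPM (SD, n = 5) in sperm. It averaged 0.0124 CPM in brain, passed the filter through the sperm libraries and had to differ. GTSF1 and SMC1B averaged 0.0635 and 0.0763 CPM in brain. They may also have passed the filter through the sperm libraries, so their calls are no independent support. Also higher were GTSF1 (8.42), SMC1B (7.62), SYCE1 (7.38), TEX15 (6.63), BRDT, a testis bromodomain gene (5.40), HORMAD1 (3.97) and TEX14 (3.44). Lower were TCFL5 (-4.51), TEX11 (-4.21), MEI1 (-3.65), BTBD18 (-2.61), YTHDC2 (-2.35), TDRKH (-1.98) and TEX12 (-1.47). TEX14 was not called with plain totals (0.78), TEX12 was not called with upper quartile factors (-0.76), and TEX11, BTBD18 and TEX12 were not called with voom weights.

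Across the 10 sheep brain regions, DDX4 and SYCP2 each varied, with different regions on top. DDX4 was highest in hippocampus, at 11.9, 3.51, 5.90, 6.82 and 4.63 CPM in sheep 687, 688, 690, 694 and 699. Entorhinal cortex followed at 5.35 ± 4.09 CPM (SD, n = 5), with 12.2 in sheep 694, and then pons at 4.53 ± 1.57. The other 7 regions had means of 1.87 (posterior parietal cortex) to 2.84 CPM (motor cortex). Hippocampus (6.54 ± 3.22), entorhinal cortex and pons did not differ beyond their spread.

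SYCP2 was highest in cerebellum, at 6.18, 5.46, 5.93, 3.81 and 5.15 CPM in the same order of sheep. Every other region stayed at or below 2.52 CPM except basal ganglia of sheep 694 (4.16 CPM), so cerebellum was clear of the other regions in all sheep but 694. SYCP3 had its highest mean in cerebellum too (1.43 ± 0.29 CPM), but within a range of 0.664 (visual cortex) to 1.43 over the regions.

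**Figure D5:**
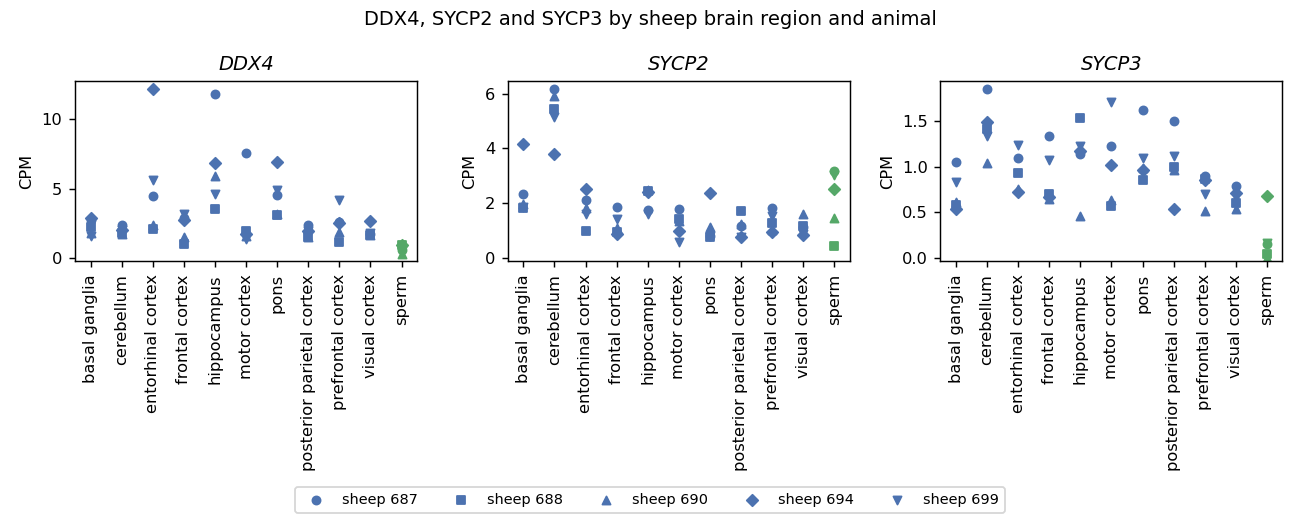
CPM of DDX4, SYCP2 and SYCP3 (linear axes) in the 10 sheep brain regions and sperm; each symbol is a sheep, blue for brain and green for sperm. SYCP2 stands highest in cerebellum and DDX4 in hippocampus, with single high points of DDX4 in entorhinal cortex (sheep 694) and motor cortex (sheep 687).

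The test over regions, edgeR's F test at an adjusted p below 0.05, called 76.7% of 21147 genes, so a call here is common. Of 4 members tested, SYCP2 (adjusted p = 3.1e-09) and DDX4 (adjusted p = 8.1e-05) were called, and SYCP3 (adjusted p = 0.23) and MAEL (adjusted p = 0.93) were not. With the animal as a block SYCP3 was called (adjusted p = 0.046), and it was called with plain totals (adjusted p = 0.018). Of 51 other pathway genes tested, 36 were called.

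Sperm minus brain was last compared between the species, over 15172 genes with a shared symbol, as the sheep difference less the rat difference, with the 10 regions of a sheep summed. Of all genes, 23.9% were called higher in this difference and 38.4% lower, and these shares also turned with the scaling: 3619 higher and 5827 lower in the fit reported, 5044 and 3978 with RLE factors, 4766 and 4376 with upper quartile factors and 5530 and 4105 with DESeq2. All 10 members were tested, and 3 were called. DDX4 differed by -9.82 on the log2 scale (SE 1.92, adjusted p = 2.6e-05). Within the species its sperm-over-brain difference was 9.92 in rat and 0.38 in sheep, where it was not called and its direction turned with the scaling. TEX101 differed by -4.15 (SE 1.82, adjusted p = 0.044) and PIWIL2 by 3.67 (SE 1.34, adjusted p = 0.016).

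The call of DDX4 held under every setting tried, from -10.08 to -6.65 over scalings and tools, and with the animal as a block (-7.99). The block ended the calls of PIWIL2 (4.46, adjusted p = 0.060) and TEX101 (-4.33, adjusted p = 0.061), and added SYCP1 (-3.24, adjusted p = 0.040), DAZL (5.38, adjusted p = 0.049), PIWIL1 (5.63, adjusted p = 0.030) and TDRD1 (5.82, adjusted p = 0.028). PIWIL2 rested on sheep 694 (1.27, adjusted p = 0.49 without it), and TEX101 on sheep 687 (-2.87, adjusted p = 0.66 without it) and rat sperm library 17 (-4.06, adjusted p = 0.051 without it). Of 67 other pathway genes tested, 13 were called higher and 20 lower, with a median of -0.83 beside -0.69 over all genes. That balance turned as well, to 14 and 9 with RLE factors, 15 and 9 with upper quartile factors, 18 and 11 with DESeq2, 24 and 9 with voom weights and 17 and 8 with the animal as a block.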

How the data were processed

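Gene counts of 58 rat and 55 sheep libraries were used as the authors deposited them, as raw whole-number read counts per gene. Per the series' design text, reads were trimmed with Trimmomatic 0.39, aligned with STAR 2.7.5a to GRCr8 (rat) or ARS-UI_Ramb_v3.0 (sheep) and counted with Rsubread 2.20.0. For strand and for reads of overlapping genes, the counting settings are not stated in the labels. Replicates are libraries of separate animals, except that the 10 regions of a sheep share an animal.

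CPM was computed from plain library totals. How many of all genes had groups without overlap was not counted in any comparison. Tests used edgeR 4.0.16 in R 4.3.3 (quasi-likelihood, TMM factors, filterByExpr by group) on all genes, in 7 comparisons, with Benjamini-Hochberg adjustment at 0.05 and a minimum log2 fold change of 1 in size. The code was tested on simulated data with known fold changes. Alternatives were RLE, upper quartile and no factors, no filter, DESeq2 1.42.0 (which by default replaces outlying counts in groups of 7 or more), limma voom 3.58.1 with quality weights, rRNA-like entries left out, the animal block and left-out libraries.

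The members and lists were chosen with earlier results of these data known. All members are named throughout. From each other list, up to 2 called genes that were higher and 2 that were lower are named, by size of fold change, if their higher group averaged 1 CPM or more. Likeness took the 3 highest Spearman correlations among named genes with a mean of at least 1 CPM.

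Same-numbered libraries come from the same animal by the design text. Their deviations from group means correlated at -0.0726 to 0.151 for rat sperm and male brain (3 of 15 pairs over 0.1), -0.0484 to 0.0872 for ovary and female brain, and -0.0327 to 0.0724 for sheep sperm and hippocampus. Depths are in the report. The spread between animals need not exceed counting error for members with few counts, such as TDRD1 in sheep basal ganglia (6 counts over 5 libraries).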

Additional observations from a re-analysis of the deposited data

Results flagged for a closer look

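In 9 of 50 groups of 5 sheep checked for these genes, 1 library stood apart by Dixon's test at the 95% level. Chance does so in about 1 in 20 groups only where values are independent and normally spread. These CPM values are in part near 0 and the groups reuse the same 5 sheep, so no excess is read from the count. Of the 9 libraries, 8 were of sheep 694. For SYCP2 these were its basal ganglia at 4.16 CPM (others 1.84 to 2.35) and pons at 2.39 CPM (others 0.749 to 1.14). For MAEL they were cerebellum at 0.386 CPM (others 0.0505 to 0.0891), entorhinal cortex at 0.218 CPM (others 0.0531 to 0.0824) and posterior parietal cortex at 0.434 CPM (others 0 to 0.0344). DDX4 in visual cortex was at 2.68 CPM (others 1.64 to 1.79), and in sperm SYCP3 was at 0.677 CPM (others 0 to 0.169) and PIWIL2 at 0.575 CPM (others 0 to 0.0814). The exception was DDX4 in the motor cortex of sheep 687, at 7.61 CPM (others 1.34 to 1.93).

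The sperm-against-brain difference was itself called different between sheep and rat for DDX4 (-9.82), TEX101 (-4.15) and PIWIL2 (3.67), as log2 sheep less rat. Species and library kit cannot be told apart in this term.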

How the results depend on the processing

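In ovary against female brain, all 72 alternative values of the tested members kept their direction and call. The number of members called moved by more than 1.5 times in these cases: sheep sperm 8 (no filter) and 7 (DESeq2) against 4; rat sperm 3 with voom and 3 with the replicate block against 7; ovary against sperm 5 (voom) against 9; brain by sex 1 (DESeq2) and 1 (voom) against 0; sheep regions 4 (no filter) against 2; and the species term 8 (voom) and 5 (replicate block) against 3. Counts of other pathway genes moved to 23 (voom) from 46 in sheep sperm, and to 51 (no filter), 45 (DESeq2) and 18 (replicate block) from 29 in rat sperm. The replicate block changed no other call among the members than those given beside the results.

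With libraries left out, members called ranged over 3 to 5 in sheep sperm, 5 to 7 in rat sperm, 6 to 6 in ovary against brain, 7 to 9 in ovary against sperm, 0 to 0 by sex, 2 to 2 over regions and 2 to 3 in the species term. Pathway genes called ranged over 41 to 46, 28 to 33, 30 to 30, 23 to 29, 0 to 0, 33 to 38 and 27 to 35 in the same order.

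Directions turned as follows, and the cause was not tested. In sheep sperm these were SYCP3 with plain totals (-2.15), voom (-0.66) and without sheep 694 (-0.33; 0.59 at most, without 688), and DDX4 with plain totals (-2.14). In rat sperm they were SYCP3 with DESeq2 (-0.81), voom (-2.97) and the replicate block (-2.53), and PIWIL2 with voom (-0.19). In ovary against sperm voom turned SYCP1 (0.67), SYCP3 (0.12), DAZL (5.95), PIWIL1 (2.26), PIWIL2 (0.35), TDRD1 (1.64) and MAEL (1.50), and DAZL also turned with DESeq2 (2.40), without sperm library 7 (0.12) and without 14 (0.27; -0.56 at the other end, without 10). By sex SYCP2 turned with voom (0.014). In the species term SYCP1 turned with voom (4.17), SYCP2 with RLE (0.43), upper quartile (0.47), DESeq2 (0.43), voom (1.99) and the replicate block (1.68), SYCP3 with voom (2.30) and the replicate block (2.29), and MAEL with RLE (0.24), upper quartile (0.32), DESeq2 (0.24), voom (6.99), the replicate block (3.46) and without sheep 694 (0.20; -1.33 without 699). DAZL turned without sheep 694 (-0.28; 1.32 without 688) and PIWIL1 without sheep 690 (-0.34; 0.56 without 687). Group mean CPM moved beyond 1 SD in 10 of 60 cases with TMM-adjusted totals and in 9 of 60 with rRNA-like entries left out, all in sheep sperm. Depth limits the low end: no counts in 15 male brains allows up to 0.00379 CPM over that group, for counting error only.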
